A study of Mus musculus with 6 samples.

Results

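The genes described here are 10 stress and repressor genes that cells switch on when oxygen is low, namely Ndrg1, Bnip3, Bnip3l, Ddit4, Ankrd37, Kdm3a, Mxi1, Bhlhe40, Stc2 and Ero1l. They were taken by symbol from the authors' deposited comparison table and joined by Ensembl identifier to the raw counts of each library, and all 10 of the 10 were found among 39179 gene identifiers. The samples were 6 mammary tumour grafts of mouse, 3 labelled WT and 3 labelled AXL KO, in the FVB strain. The grafted cells carried the MMTV-Neu transgene in both groups, in which the mouse mammary tumour virus promoter drives the Neu (ErbB2) oncogene in mammary epithelium. They were AXL+/+ in the WT group and AXL-/- in the AXL KO group, Axl being a receptor tyrosine kinase. The labels used here do not give the age of the mice, the genotype of the hosts at Axl, the time after grafting, the number of cell lines behind each group, or whether grafts were pooled. The question put to these genes is whether their transcripts differed when the grafted cells lacked AXL. Each graft also holds host stroma, vessels and leukocytes.

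In low oxygen the prolyl hydroxylases that mark the alpha subunits of hypoxia-inducible factor (HIF) for destruction through Vhl lose activity, and HIF binds short hypoxia response elements near its target genes. Many targets feed glucose use and vessel growth. Some of the genes described here belong to another arm of that response, which saves energy or damps growth. Bnip3 and Bnip3l are receptors on the outer mitochondrial membrane that bring in LC3 proteins, so that the mitochondrion is taken up by autophagy. Ddit4 (REDD1) restrains the growth kinase mTORC1. Mxi1 pairs with MAX and opposes MYC, Bhlhe40 (DEC1) represses genes at E-boxes, and Kdm3a removes repressive methyl marks from histones. Ero1l is the oxidase that recharges protein disulfide isomerases in the endoplasmic reticulum, Stc2 is a secreted glycoprotein, Ndrg1 is a cytoplasmic stress protein that MYC proteins repress, and Ankrd37 is a small ankyrin repeat protein. Several of these genes also answer to other signals, such as the integrated stress response and glucocorticoids.

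Promoter sequences are shown because hypoxia response elements share a short core, here searched as ACGTG and GCGTG on both strands in the 250 bases before each RefSeq start (build GRCm38.p6). A CACGTG holds ACGTG on both strands and counts as 2 matches, and matches may overlap. Of the 10 genes 7 had an entry, with 11 start sites between them, and Ndrg1, Bnip3l and Bhlhe40 had none. Each of the 7 had the core in at least 1 window, and 8 of the 11 windows held it, against 38.6% of all 32851 windows of the same length. Both cores hold CG, and the windows compared were not matched for GC content, which ran from 48.4% to 80.8% in the 11. Kdm3a and Mxi1 had 3 windows each, which gives more chances of a match per gene, and 2 of the Kdm3a windows overlapped. The stretches below are the parts of the windows that lie outside annotated exons, in lower case with each match in capitals, for 3 genes that were lower in the AXL KO libraries and for Mxi1, which did not pass the test. They are given 5′ to 3′ along the gene's strand, so that a match on the other strand reads CACGT or CACGC.
Bnip3, chr7:138909520-138909756, minus strand: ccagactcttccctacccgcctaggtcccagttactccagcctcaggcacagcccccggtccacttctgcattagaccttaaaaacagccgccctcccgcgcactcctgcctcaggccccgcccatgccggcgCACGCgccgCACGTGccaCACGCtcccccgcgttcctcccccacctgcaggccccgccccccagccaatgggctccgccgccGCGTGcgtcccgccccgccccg
Ddit4, chr10:59951835-59952020, minus strand: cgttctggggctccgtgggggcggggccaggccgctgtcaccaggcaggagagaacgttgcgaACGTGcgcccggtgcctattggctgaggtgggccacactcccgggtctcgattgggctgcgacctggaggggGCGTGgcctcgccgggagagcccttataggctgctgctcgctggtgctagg
Ankrd37, chr8:45999868-46000100, minus strand: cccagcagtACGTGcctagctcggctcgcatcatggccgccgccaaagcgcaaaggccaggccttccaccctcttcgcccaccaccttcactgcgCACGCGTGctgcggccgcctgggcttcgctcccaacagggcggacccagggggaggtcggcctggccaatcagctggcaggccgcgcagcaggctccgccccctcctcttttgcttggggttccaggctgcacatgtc
Mxi1, chr19:53329163-53329412, plus strand: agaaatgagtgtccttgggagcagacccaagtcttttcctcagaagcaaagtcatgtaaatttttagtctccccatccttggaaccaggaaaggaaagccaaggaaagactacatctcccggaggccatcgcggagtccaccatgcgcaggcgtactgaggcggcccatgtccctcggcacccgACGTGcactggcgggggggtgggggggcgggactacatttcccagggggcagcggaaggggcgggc
Bnip3 had 5 matches in its window, 2 of them from a CACGTG, Ankrd37 had 4, of which 1 lies outside the stretch shown, Ddit4 had 2 and this start of Mxi1 had 1. The motif CACGTG, the E-box that MYC and MAX dimers and the proteins of the Bhlhe40 family recognise, was in 1 of the 11 windows and in 6.02% of all windows. These are letter matches, not binding sites.

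Libraries held 26541009 to 32491807 counts in genes, and the 10 genes together summed to 1648 to 2420 CPM (counts-per-million scale, TMM-scaled library sizes) in the WT libraries and 1132 to 1666 CPM in the AXL KO libraries. Mitochondrial transcripts made up 4.45% to 4.96% of counts in WT and 3.95% to 4.44% in AXL KO. Axl, the targeted gene, had 1906, 1761 and 1507 counts in the WT libraries and 1360, 2396 and 1767 in the AXL KO libraries, with a log2 fold change of -0.01 and an edgeR adjusted p of 0.978, so it did not check the genotype, and directions are between libraries as labelled. Whole-gene counts cannot show a deletion of part of the gene, and the labels do not say which part was altered. Epithelial markers were present, with Erbb2 at 7193 ± 655 CPM (SD, n = 3) in WT and 9207 ± 1007 CPM in AXL KO. Whether reads of the Neu transgene are part of the Erbb2 count was not tested. Other markers of the same list went the other way, lower in every AXL KO library than in any WT library. In WT and AXL KO, Epcam lay at 1998 ± 48.7 and 1388 ± 44.8 CPM and Krt18 at 1168 ± 131 and 769 ± 82.5 CPM. Krt8 lay at 831 ± 36.2 and 612.5 ± 52.1 CPM. Krt19, also on this list, lay at 0.0460 ± 0.0535 CPM in WT and 0.0934 ± 0.134 CPM in AXL KO. Separate animals are not stated for the grafts of a group, so p-values measure only how far these samples spread, part of which may be technical. In bulk tissue, fewer cells of a type and less RNA per cell cannot be told apart.

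Of the 10 genes 5 were lower in the AXL KO libraries and none was higher at an adjusted p under 0.05 (edgeR quasi-likelihood test, Benjamini-Hochberg adjustment over 14850 genes). The 5 were Ndrg1, Ankrd37, Bnip3, Ddit4 and Bnip3l. Among all tested genes 18.3% were lower, 19.1% higher and 37.4% changed in either direction at the same threshold. The median log2 fold change of the 10 genes was -0.76, against 0.0003 for all tested genes, and the fold change was negative for all 10, against 50% of tested genes. The same 5 genes had groups that did not overlap, with every AXL KO library below every WT library, which 25.2% of tested genes had (26.9% had every AXL KO library above, and 52.1% had either). The other 5 overlapped. WT replicate 1 was the lowest WT library for all 10 genes. Overlap here thus only means that it lay at or below the highest AXL KO library.

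**Figure D1:**
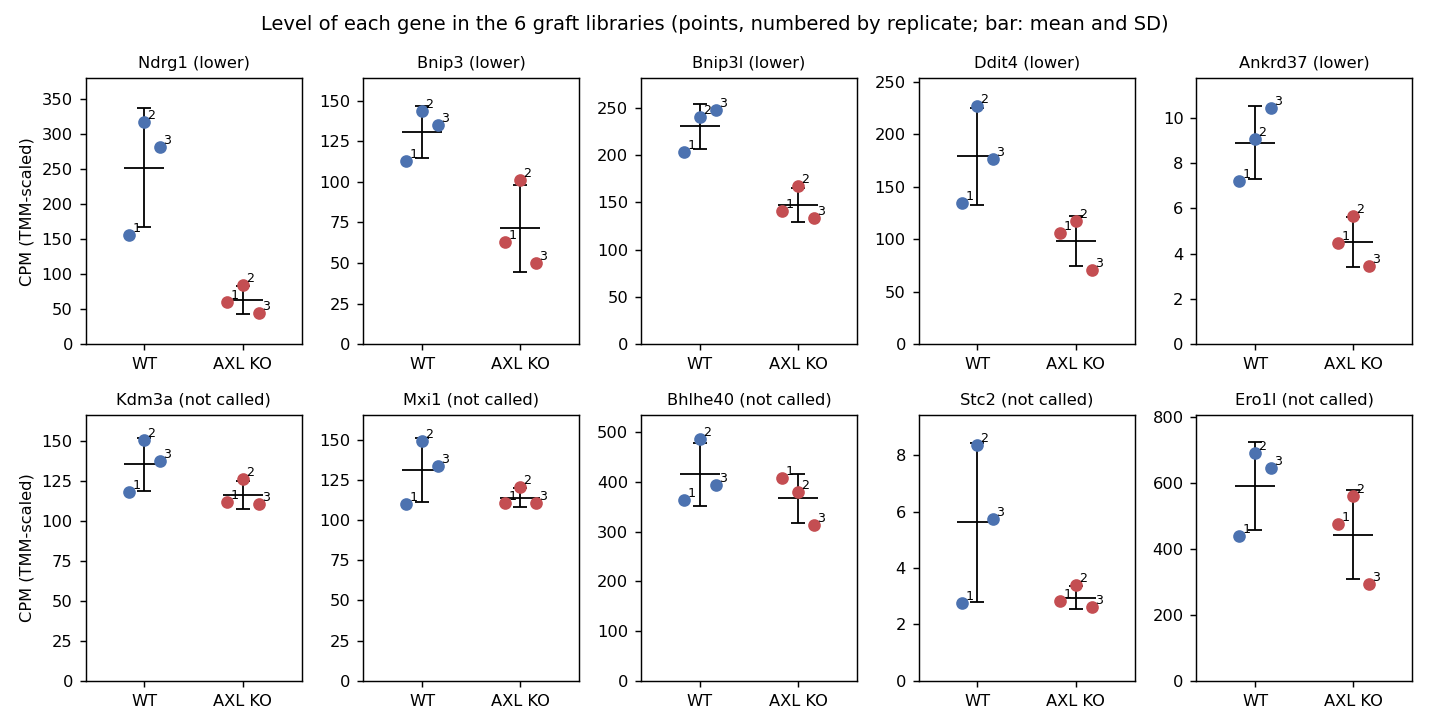
Level of each gene in CPM (vertical axis, linear, from 0) in the 3 WT and 3 AXL KO libraries, with points numbered by replicate and bars for the mean and SD. In the upper row, from Ndrg1 to Ankrd37, the groups are apart, and in the lower row, from Kdm3a to Ero1l, they overlap.

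Ndrg1 (ENSMUSG00000005125, GRCm38 chromosome 15, 66929318 to 66969640) had the largest fold change of the 10. Its counts were 4232, 9553 and 8093 in WT replicates 1 to 3 and 1690, 2760 and 1354 in AXL KO replicates 1 to 3. Its level was 156, 317.5 and 282 CPM in the WT libraries and 59.9, 85.3 and 44.5 CPM in the AXL KO libraries. The highest AXL KO library therefore lay below the lowest WT library, and within WT the values were spread 2.04-fold, with replicate 1 low. The mean fell from 252 ± 85.0 to 63.2 ± 20.6 CPM (SD, n = 3 per group), a log2 fold change of -1.99 ± 0.29 (SE, 95% interval -2.65 to -1.34, edgeR adjusted p = 0.00108). It ranged from -2.27 to -1.79 when each library was left out in turn, with adjusted p-values from 0.00024 to 0.00692. The authors' deposited table gave -1.86 ± 0.36 (SE) when turned to the same direction.

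Ndrg1, which had the largest fold change of the 10, was also lower relative to the other 9 genes in every AXL KO library. Its counts per count of Kdm3a were 1.32, 2.11 and 2.06 in the WT libraries and 0.537, 0.677 and 0.403 in the AXL KO libraries. For all 9 such ratios every AXL KO library lay below every WT library, with log2 differences from -0.99 (to Ankrd37) to -1.80 (to Bhlhe40). The exact permutation test, two-sided, gave p = 0.1 for each, the smallest it can give with 3 libraries against 3, and 0.111 after Benjamini-Hochberg adjustment over the 10 ratios tested. This measure of Ndrg1 comes from the same libraries and is not independent of its fold change.

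The mitophagy receptors Bnip3 and Bnip3l both fell. Bnip3 (ENSMUSG00000078566, chromosome 7, 138890836 to 138909519) had 3068, 4328 and 3874 counts in WT and 1780, 3277 and 1517 in AXL KO, or 113, 144 and 135 CPM against 63.1, 101 and 49.8 CPM. The AXL KO libraries were spread 2.03-fold, with replicate 2 near the WT range, while the WT libraries were spread 1.27-fold. The log2 fold change was -0.87 ± 0.23 (SE, edgeR adjusted p = 0.0156). Without AXL KO replicate 1 the edgeR adjusted p was 0.0584 and without WT replicate 3 it was 0.053, so the call was lost in both, at log2 fold changes of -0.79 and -0.85.

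Bnip3l (ENSMUSG00000022051, chromosome 14, 66985239 to 67008877), also called Nix, had 5519, 7232 and 7083 counts in WT and 3990, 5413 and 4052 in AXL KO. These are 203, 240.3 and 247 CPM against 141, 167 and 133 CPM, with the least spread of the 5 genes that fell, 1.22-fold in WT and 1.26-fold in AXL KO. The log2 fold change was -0.64 ± 0.11 (SE, edgeR adjusted p = 0.00221), and the call held without any 1 library, with adjusted p-values from 0.00102 to 0.0141. The count of Bnip3 per count of Bnip3l was 0.556, 0.598 and 0.547 in WT and 0.446, 0.605 and 0.374 in AXL KO. These ratios overlapped between the groups (exact permutation test, two-sided, p = 0.4, where 0.1 is the smallest 3 libraries against 3 can give).

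Ddit4 (ENSMUSG00000020108, chromosome 10, 59949669 to 59951834), the inhibitor of mTORC1, had 3642, 6822 and 5045 counts in WT and 2993, 3791 and 2165 in AXL KO. Its level was 134, 227 and 176 CPM in WT and 106, 117 and 71.1 CPM in AXL KO, so WT replicate 1 and AXL KO replicate 2 lay close to each other. The log2 fold change was -0.87 ± 0.22 (SE, edgeR adjusted p = 0.0131). Ankrd37 (ENSMUSG00000050914, chromosome 8, 45996902 to 46005707) was a low gene, with 196, 272 and 299 counts in WT and 126, 183 and 105 in AXL KO. In CPM these were 7.22, 9.04 and 10.4 against 4.46, 5.66 and 3.45, with no overlap. The log2 fold change was -0.97 ± 0.21 (SE, edgeR adjusted p = 0.0068). Both calls held without any 1 library, with adjusted p-values of at most 0.0412 for Ddit4 and 0.0326 for Ankrd37. Ankrd37 shares 57 exonic bases with Ufsp2, which had 1830 to 2376 counts per library, and 349 with Lrp2bp, and with no statement on strand such reads cannot be told apart.

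**Figure D2:**
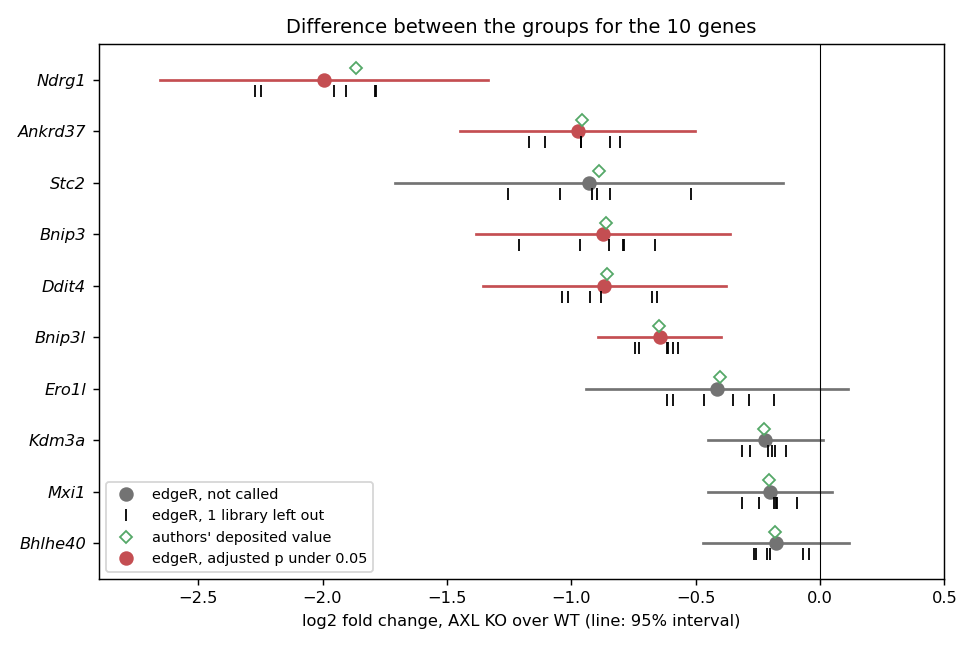
Log2 fold change of AXL KO over WT (horizontal axis) for the 10 genes, ordered by size, with the 95% interval as a line, the 6 values with 1 library left out as ticks and the authors' deposited value as a diamond. The estimate of Ndrg1, -1.99, lies furthest from 0, but its interval overlaps those of Ankrd37, Stc2, Bnip3 and Ddit4. Kdm3a, Mxi1 and Bhlhe40 lie closest to 0.

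The 3 genes for chromatin and transcriptional repressors, Kdm3a, Mxi1 and Bhlhe40, did not pass the test. Kdm3a (ENSMUSG00000053470, chromosome 6, 71588972 to 71632990), the histone demethylase, lay at 118, 150.2 and 137 CPM in WT and 112, 126 and 110.3 CPM in AXL KO. At a log2 fold change of -0.22 its 95% interval ran from -0.45 to 0.01 (edgeR adjusted p = 0.118). Mxi1 (ENSMUSG00000025025, chromosome 19, 53310518 to 53375810), the MAX partner, lay at 109.9, 149 and 134 CPM in WT and 111, 121 and 110.4 CPM in AXL KO, with a log2 fold change of -0.20 and an interval from -0.45 to 0.05 (edgeR adjusted p = 0.181). In both genes the AXL KO libraries were tight, and WT replicate 1 lay among them for Kdm3a and just below them for Mxi1. Without WT replicate 1 both were called lower, at -0.31 each, with edgeR adjusted p-values of 0.0218 for Kdm3a and 0.0168 for Mxi1. Without WT replicate 2 the values shrank to -0.14 for Kdm3a and -0.09 for Mxi1 (edgeR adjusted p of 0.297 and 0.475).

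Bhlhe40 (ENSMUSG00000030103, chromosome 6, 108660629 to 108666925), the E-box repressor, lay at 364, 485.5 and 394 CPM in WT and 408, 379 and 313 CPM in AXL KO. AXL KO replicate 1 lay above WT replicates 1 and 3. The estimate was -0.18 on the log2 scale (95% interval -0.47 to 0.12, edgeR adjusted p = 0.307), an interval that holds the estimate of Kdm3a but not that of Bnip3l. Single libraries moved this small value, to -0.05 when WT replicate 2 was left out and -0.07 when AXL KO replicate 3 was, with edgeR adjusted p-values from 0.144 to 0.775 over the libraries left out.

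The secretory pathway genes Stc2 and Ero1l did not pass the test either, and for Stc2 this turned on the library and the tool. Stc2 (ENSMUSG00000020303, chromosome 11, 31357307 to 31370074) had 75, 252 and 164 counts in WT and 80, 110 and 80 in AXL KO, the fewest of the 10 genes in every library. In CPM these were 2.76, 8.38 and 5.72 against 2.83, 3.40 and 2.63, so WT replicate 1 lay within the AXL KO range while the other WT libraries lay above it. The log2 fold change was -0.93 ± 0.34 (SE, 95% interval -1.71 to -0.15, edgeR adjusted p = 0.0615). Without WT replicate 1 it was -1.25 and called (edgeR adjusted p = 0.00329), and without WT replicate 2 it was -0.52 (edgeR adjusted p = 0.218). DESeq2 called it, with an adjusted p of 0.019, as did edgeR with no filter on low genes (0.0322) and the authors' deposited table (0.0189).

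Ero1l (ENSMUSG00000021831, chromosome 14, 45283087 to 45318771), the disulfide oxidase that newer annotation calls Ero1a, had 11957, 20746 and 18459 counts in WT and 13432, 18121 and 8967 in AXL KO. It lay at 440.1, 689.5 and 644 CPM in WT and 476, 559.9 and 295 CPM in AXL KO. WT replicate 1 lay below AXL KO replicates 1 and 2, and AXL KO replicate 3 stood lowest. The log2 fold change was -0.41 ± 0.23 (SE, 95% interval -0.94 to 0.11, edgeR adjusted p = 0.19). It was -0.18 without AXL KO replicate 3 and -0.62 without AXL KO replicate 2, with edgeR adjusted p-values of 0.482 and 0.0637.

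The libraries ranked alike across the 10 genes within each group. WT replicate 1 was the lowest of the WT libraries for all 10, and AXL KO replicate 3 the lowest of the AXL KO libraries for all 10. AXL KO replicate 2 was the highest of its group for 9, Bhlhe40 being the exception. Over all 14850 tested genes WT replicate 1 was lowest in 40.2%, AXL KO replicate 3 was lowest in 31.8% and AXL KO replicate 2 was highest in 37.2%. Relative to each gene's WT mean, the median over the 10 genes was 82.5%, 116% and 102% in WT replicates 1 to 3 and 60.3%, 75.1% and 48.3% in AXL KO replicates 1 to 3. In the AXL KO libraries single genes ran from 17.7% (Ndrg1, replicate 3) to 98.3% (Bhlhe40, replicate 1). The genes are not independent of each other, and these are ranks within 3 libraries.

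**Figure D3:**
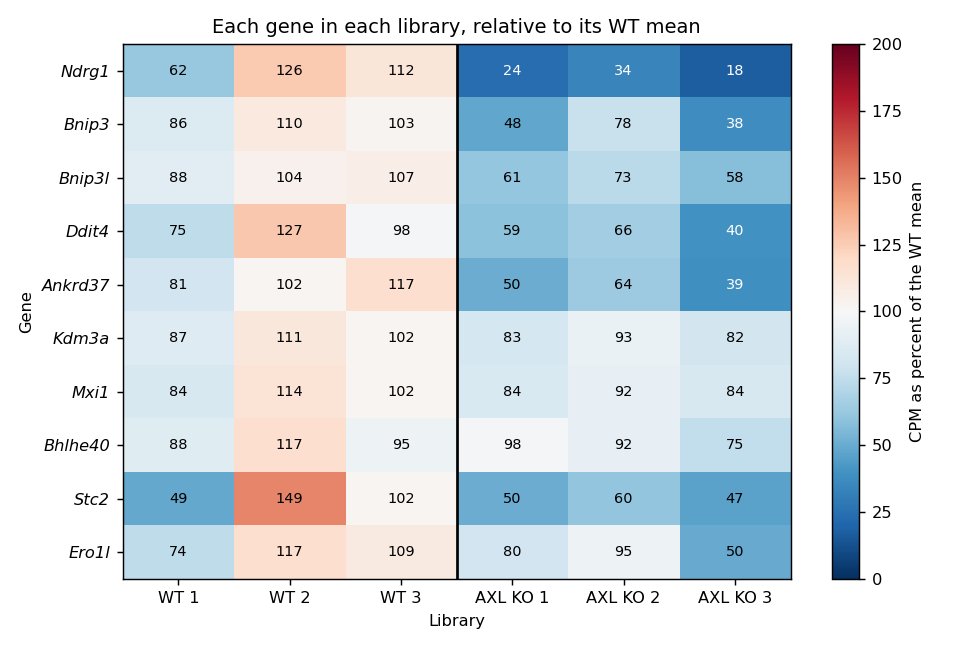
Level of each of the 10 genes (rows) in each library (columns), as a percent of that gene's WT mean, with blue below and red above 100. WT replicate 1 is blue for every gene, from 49.1% to 88.3%, and AXL KO replicate 3 is the lowest of its group for every gene, down to 17.7% for Ndrg1.

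Per length, Ndrg1 stood above Mxi1 and Kdm3a in the WT libraries and below them in the AXL KO libraries. In RPKM, here the CPM divided by the exonic length in kilobases, WT means were 112 ± 25.1 for Ero1l, 102 ± 26.4 for Ddit4 and 88.1 ± 13.4 for Bhlhe40, and the ranges of these 3 overlapped. Bnip3l at 59.6 ± 6.14 and Bnip3 at 57.7 ± 7.03 overlapped each other. Then came Ndrg1 at 38.2 ± 12.9, Mxi1 at 19.2 ± 2.91 and Kdm3a at 16.4 ± 1.98, the last 2 overlapping, and Ankrd37 at 5.78 ± 1.05 and Stc2 at 1.09 ± 0.543. In the AXL KO libraries Ndrg1, at 9.58 ± 3.12, stood below Mxi1 at 16.7 ± 0.86 and Kdm3a at 14.1 ± 1.06 with no overlap. There Ero1l at 83.9 ± 25.6 and Bhlhe40 at 77.9 ± 10.4 overlapped, as did Bnip3l at 38.2 ± 4.62 and Bnip3 at 31.5 ± 11.8, and Ddit4, at 55.9 ± 13.7, overlapped both Ero1l and Bhlhe40. Ddit4 and Bhlhe40 thus changed order by their means, with overlapping ranges in both groups. Ankrd37 at 2.94 ± 0.717 and Stc2 at 0.571 ± 0.0771 were again lowest.

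Other genes known to be induced through HIF were also lower in large part. Of 39 tested, 26 (66.7%, against 18.3% of all tested genes) fell and 3 rose, and their median was -0.55 on the log2 scale. Without AXL KO replicate 3 the number that fell was 16. Those with the smallest p were the glycolytic genes Pfkl, Gapdh and Pgk1 and the cytokine gene Mif, the last at 239.7 ± 9.18 CPM in WT and 112 ± 15.5 CPM in AXL KO (log2 fold change -1.09 ± 0.10 SE, edgeR adjusted p = 0.000113). The 3 that rose, named after their values were seen, were the histone demethylase gene Kdm4c (0.60), Ccng2 (0.40) and Narf (0.32), given as log2 fold changes. As in the 10 genes, WT replicate 1 was the lowest WT library for 31 of the 39 and AXL KO replicate 3 the lowest AXL KO library for 31.

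Transcripts of the HIF system itself were lower in part, and some of them are HIF targets too. Of 9 tested genes for HIF subunits, hydroxylases and Vhl, 6 fell (66.7%, against 18.3% of all tested genes) and none rose. Of these, Egln1 and Egln3 were also counted among the other HIF targets that fell. Hif1a, the oxygen-regulated subunit, fell from 246 ± 9.97 to 165 ± 23.0 CPM (log2 fold change -0.58 ± 0.10 SE, edgeR adjusted p = 0.00259), and Epas1, which encodes the HIF-2 alpha subunit, fell from 68.7 ± 9.79 to 38.2 ± 0.938 CPM (edgeR adjusted p = 0.000467). The beta subunit gene Arnt lay at 73.1 ± 5.59 and 83.0 ± 2.20 CPM (edgeR adjusted p = 0.102), and its relative Arnt2 fell from 2.80 ± 0.177 to 1.21 ± 0.216 CPM. Egln3 and Vhl fell as well, by 0.82 and 0.58 on the log2 scale, as did Egln1, by 0.45. Hif3a was too low to test, at 0.254 CPM in WT and 0.0625 CPM in AXL KO. HIF activity is set largely at the protein level, which was not measured.

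**Figure D4:**
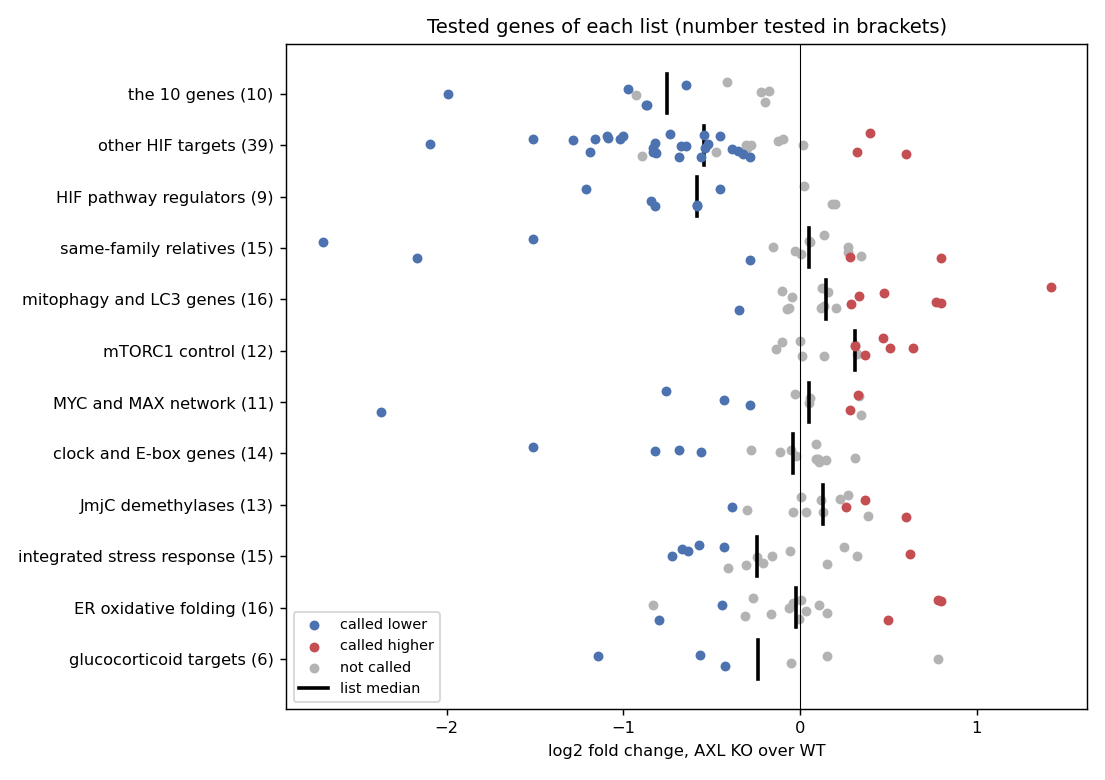
Log2 fold change of AXL KO over WT (horizontal axis) for every tested gene of the 10 described here and of 11 related lists, with genes called lower in blue, called higher in red and not called in grey, and the median as a black bar. The median lies at -0.76 for the 10 genes, -0.55 for other HIF targets and 0.31 for mTORC1 control.

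Relatives of the 10 genes went different ways. Of 15 tested 4 fell and 2 rose, or 40% called against 37.4% of all tested genes, and the median was 0.05 on the log2 scale. In the NDRG family Ndrg2 fell from 40.4 ± 12.8 to 8.98 ± 2.59 CPM (log2 fold change -2.17 ± 0.27 SE, edgeR adjusted p = 0.000467) and Ndrg4 from 7.18 ± 1.98 to 1.10 ± 0.363 CPM (-2.70 ± 0.29 SE, edgeR adjusted p = 0.000219), beside Ndrg1, while Ndrg3 lay at -0.16 and did not pass. Bhlhe41, the paralog of Bhlhe40, fell from 59.3 ± 9.39 to 20.8 ± 7.80 CPM, a log2 fold change of -1.51 ± 0.24 (SE, edgeR adjusted p = 0.00156). Whether it differed from Bhlhe40 was not tested.

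Ero1lb, the paralog of Ero1l, rose from 81.2 ± 6.35 to 141 ± 13.4 CPM (log2 fold change 0.80 ± 0.09 SE, edgeR adjusted p = 0.000378). Max, the partner of Mxi1, fell by 0.29 on the log2 scale and Mxd1, a MAX partner like Mxi1, rose by 0.28. Stc1, Ddit4l, Kdm3b, Jmjd1c, Mxd3, Mxd4, Mnt and Mga did not pass, with log2 fold changes from -0.03 (Mnt) to 0.35 (Mga). For Kdm3b, a close relative of Kdm3a, the value was 0.27 and the edgeR adjusted p 0.0541.

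Partners of the members in their own pathways were tested from lists. A list of 16 mitophagy and autophagy genes held the LC3 family, which Bnip3 and Bnip3l bring in. Of the 16 genes 6 rose (37.5%, against 19.1% of all tested genes) and 1 fell (median 0.15 on the log2 scale). The share called in either direction was 43.8%, against 37.4% of all tested genes. Pink1, the kinase that marks damaged mitochondria, rose from 95.1 ± 4.89 to 162 ± 16.1 CPM (log2 fold change 0.77, edgeR adjusted p = 0.000359). The receptor Optn rose by 0.80, Nbr1 by 0.48 and Park2, the Parkin ligase gene, by 1.42 from a level of 0.625 CPM, while the prohibitin gene Phb2 fell by 0.35. Of the LC3 family, Map1lc3a, Map1lc3b, Gabarap, Gabarapl1 and Gabarapl2 did not pass. Park2 stood under 3 identifiers in the deposited table, and the 1 with the most counts was used.

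For mTORC1, the complex that Ddit4 restrains, 12 genes that form or control it were tested. Of these 5 rose (41.7%, against 19.1% of all tested genes) and none fell (median 0.31). Called in either direction were thus 41.7%, against 37.4% of all tested genes. The 5 were Sesn3, Rptor, Txnip, Mtor and Tsc1, with log2 fold changes of 0.64, 0.47, 0.37, 0.51 and 0.31. The list was not split into genes that promote and genes that restrain the complex, so the count gives no direction for its activity. Mtor lay at 34.3 ± 6.29 CPM in WT and 48.9 ± 4.39 CPM in AXL KO (edgeR adjusted p = 0.0162). Of 11 genes of the MYC and MAX network 4 fell and 2 rose (54.5% called, against 37.4% of all tested genes, median 0.05). The smallest p-values were those of Mycn, Myc, Max and Mlx. Mycn fell from 7.41 ± 2.10 to 1.41 ± 1.01 CPM (log2 fold change -2.37 ± 0.42 SE, edgeR adjusted p = 0.00297) and Myc by 0.43 on the log2 scale, while Mlx rose by 0.33. Mlxipl, chosen after its value was seen, fell by 0.76 and completes the count with Max and Mxd1. Of 14 clock and E-box genes 4 fell and none rose (median -0.04), which were Bhlhe41, Cry1, Dbp and Per2. Of 13 JmjC demethylases 3 rose and 1 fell (median 0.13). The shares called in these last lists, 28.6% and 30.8%, were below the 37.4% of all tested genes. The shares that fell were 28.6% and 7.69%, against 18.3% of all tested genes. Kdm4c, Kdm4a and Kdm6a were the ones that rose and Kdm4b the one that fell, by 0.39 on the log2 scale.

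Lists for other inputs to these genes were tested as well. Among 15 genes of the integrated stress response 5 fell (33.3%, against 18.3% of all tested genes) and 1 rose (median -0.24). The share called in either direction was 40%, against 37.4% of all tested genes. The transcription factor gene Atf4 fell from 205 ± 3.03 to 124 ± 14.7 CPM (-0.72 ± 0.09 SE, edgeR adjusted p = 0.000519), Atf5 by 0.63 and Ddit3 (CHOP) by 0.57 on the log2 scale, while Nupr1 rose by 0.62. Chac1 and Phgdh, which complete the count, fell by 0.67 and 0.43. Among 16 genes of oxidative folding in the endoplasmic reticulum, where Ero1l acts, 3 rose and 2 fell (31.2% called, against 37.4% of all tested genes, median -0.02). Xbp1, a transcription factor of the unfolded protein response, rose by 0.78 and Herpud1 by 0.49, beside Ero1lb. The disulfide isomerase gene Pdia6 fell by 0.44 and Gpx8, which completes the count, by 0.80. Of 6 glucocorticoid targets, a class that includes Ddit4, 3 fell (50%, against 18.3% of all tested genes) and none rose (median -0.24). Called in either direction were thus 50%, against 37.4% of all tested genes. Sgk1 fell from 248 ± 30.3 to 112 ± 21.3 CPM (edgeR adjusted p = 0.000434), Fkbp5 by 0.57 and Tsc22d3 by 0.43 on the log2 scale.

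Markers of other cell types moved with the groups too. Over all tested genes 18.3% fell and 19.1% rose. Among 8 endothelial markers 6 fell (75%), with a summed level of 289 to 323 CPM in WT and 171 to 228 CPM in AXL KO. For pericytes and smooth muscle, 5 of 6 markers fell (83.3%, sums of 353 to 401 against 153 to 259 CPM). All 5 tested red cell markers fell, with sums of 646 to 1022 against 152 to 237 CPM. Of 6 T and NK cell markers 5 rose (83.3%), with sums of 6.55 to 8.18 against 15.5 to 18.0 CPM. Luminal epithelial markers, of which 3 fell and 2 rose among 7 tested (71.4% called, against 37.4% of all tested genes), had overlapping sums. These were 11340 to 12710 CPM in WT and 11640 to 13790 CPM in AXL KO. Erbb2 was the largest part of each sum and rose by 0.36 on the log2 scale, and Esrp1 rose by 0.56. Krt8, Krt18 and Epcam fell by 0.44, 0.60 and 0.53, with every AXL KO library below every WT library. The sums therefore do not show equal epithelial content. No marker of these lists was at 0 in all 6 libraries. The part of these cells in the levels of the 10 genes was not tested.

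Fibroblast and macrophage marker sums did not follow the 10 genes within the WT group. Within the AXL KO group they ranked the libraries in the same order as the summed level of the 10 genes. WT replicate 1, lowest of its group for each of the 10 genes, had the highest sums of its group for fibroblast markers (2873 CPM, against 1920 and 1712 in replicates 2 and 3) and macrophage markers (892 CPM against 577 and 618). AXL KO replicate 2, highest of its group for 9 of the 10, was also highest for fibroblast markers (2137 CPM against 1325 and 1303) and macrophage markers (939.8 CPM against 437 and 389). Of 7 fibroblast markers 1 fell, Pdgfrb (14.3%, against 18.3% of all tested genes), and of 6 macrophage markers none passed the edgeR test. AXL KO replicate 3 had adipocyte markers summing to 40.3 CPM, against 92.3 to 145 CPM in the other 5 libraries, and none of the 5 adipocyte markers passed. Of 3 tested skeletal muscle markers 1 fell (33.3%), Des, which smooth muscle also makes. Their part in the values was not tested.

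**Figure D5:**
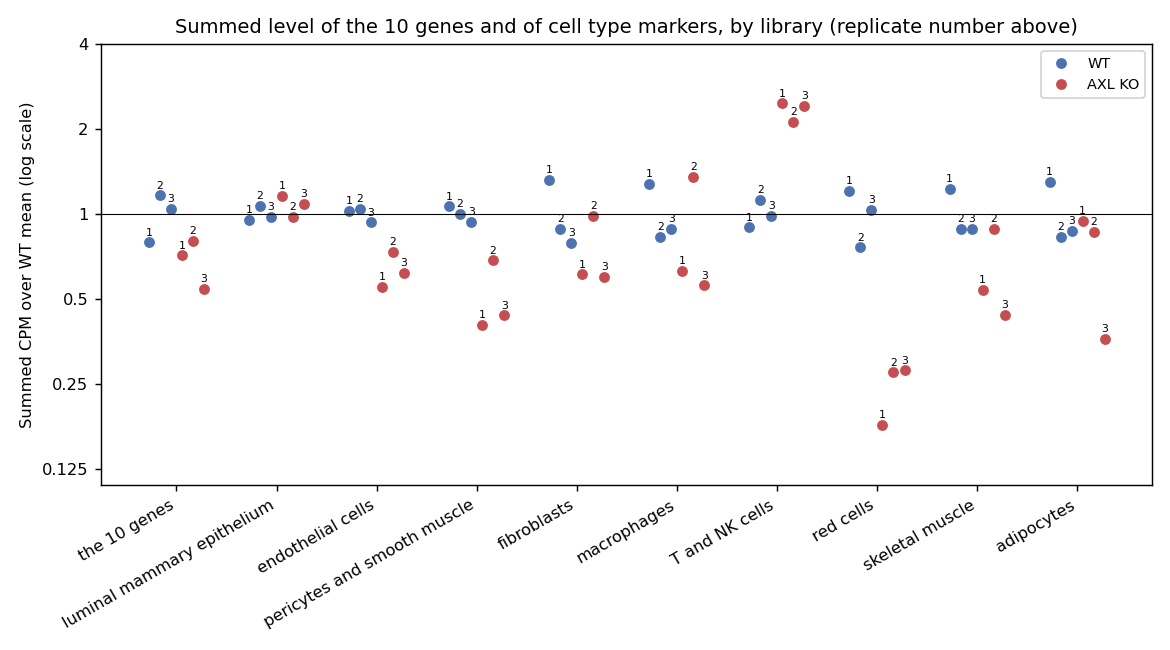
Summed CPM of the 10 genes and of 9 cell type marker lists in each library, divided by the WT mean of that sum (vertical axis, log scale), with WT in blue, AXL KO in red and the replicate number above each point. Vessel and red cell markers lie lower and T and NK cell markers higher in every AXL KO library, while fibroblast and macrophage sums overlap between the groups.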

How the data were processed

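RNA-seq libraries of 6 tumour grafts were grouped by their sample titles. CASAVA 1.8, TopHat2 2.0.10, HTSeq 0.5.3 and DESeq2 1.4.5, with build GRCm38, are named in the submitters' processing notes, and use of strand is not given in the sources used here. Raw counts per gene were deposited for each library, and 5 rows that name no gene (33.1% to 34.4% of all lines counted) were left out of library sizes and tests. The authors' deposited table holds a signal per library, which equals the count divided by a size factor, with log2 fold changes of WT over AXL KO, a test score and p-values.

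Genes were filtered with filterByExpr (minimum count 10, minimum total 15) and tested by quasi-likelihood in edgeR 4.0.16 (R 4.3.3) with TMM scaling, group as the only term and 4 residual degrees of freedom. Steps were tested on simulated data. Standard errors come from the fold change and its F statistic. Gene positions and exon lengths come from GENCODE M21 and promoters from RefSeq. Replicates differed by more than sampling noise (chi-square per gene 11.7 to 31.3 within groups). The 10 genes and all lists were chosen with earlier results of these data known. Named genes are the 10, their relatives, the HIF subunits and the 4 with the smallest p of each list, and others are said to be so or complete a short count. Alternatives used DESeq2 1.42.0, limma 3.58.1, other scalings, filters and thresholds, a replicate block and each library left out.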

Additional observations from a re-analysis of the deposited data

How the results depend on the processing

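Under the 14 alternatives that refit the fold change it stayed negative for each of the 10 genes, in all 140 values, of which 133 stayed on their side of the threshold, 2 calls were lost and 5 gained. The other 2 alternatives changed only the threshold. The number of the 10 genes called lower was 4 to 8 with 1 library left out (8 without WT replicate 1, 4 without WT replicate 3 or AXL KO replicate 1), against 5, and no gene was called higher. Over all genes the number lower was 1733 (without AXL KO replicate 3) to 2828 with 1 library left out. It was 3015 with library totals only. For the other HIF targets, with 1 library left out, it was 16 (without AXL KO replicate 3) to 29 (without WT replicate 1). An adjusted p under 0.01 left 3 of the 10 genes, 1464 genes lower, 1610 higher and 16 other HIF targets lower. At least 2-fold left 1 of the 10 (Ndrg1), 716 genes lower, 764 higher, and 9 other HIF targets lower and 0 higher. DESeq2, and edgeR with no filter on low genes, called 6 of the 10, Stc2 being the one gained. Other scalings and limma-voom called 5.

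Replicate numbers are shared by the groups, but deviations of same-numbered libraries correlated at -0.058, -0.125 and 0.088, so the numbers were not taken to pair them. WT replicate 1 correlated best with AXL KO replicate 2. With the replicate block 5 of the 10 genes, 2373 genes in all and 26 other HIF targets were lower and 2458 genes higher, and no call among the 10 changed. Stc2 had 75 to 252 counts per library, and its WT libraries were spread 3.03-fold. The part of each in its standard error was not tested.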
